A study of Mus musculus with 30 samples.

Results

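The 31 genes described here make, regulate or export cholesterol and fatty acids. They were taken by symbol from the 51752 genes of a count table of mouse brain RNA, and all 31 were found. They comprise 7 genes of the mevalonate pathway (Acat2, Hmgcs1, Mvk, Pmvk, Mvd, Idi1, Fdps), 11 of the later sterol steps (Fdft1, Sqle, Lss, Cyp51, Tm7sf2, Msmo1, Nsdhl, Hsd17b7, Ebp, Sc5d, Dhcr7) and 3 of sterol sensing (Srebf1, Srebf2, Insig1). A further 5 belong to fatty acid synthesis (Acly, Acaca, Fasn, Scd1, Scd2) and 5 to the liver X receptors and sterol transport (Nr1h2, Nr1h3, Abca1, Abcg1, Stard4). Every member passed the filter on low counts in every comparison.

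RNA was sequenced from 30 libraries of 15 saline-perfused mice. In the genotype experiment, 3 IL34 KO mice (animal 3 male, animals 6 and 24 female) were set against 4 IL34 Het mice (animals 1 and 21 male, animals 20 and 23 female), so the controls carried 1 intact copy of Il34. In the antibody experiment, 4 wild-type mice given a-IL34, a blocking antibody (animals 2, 10 and 24 male, animal 11 female), were set against 4 wild-type mice given the control a-gp120 (animals 1 and 7 male, animals 8 and 15 female). The animals of the 2 experiments were different mice even where a number recurs, and their age, the antibody dose and schedule, and the part of Il34 that was deleted are not given in the sources used here. Each mouse gave a whole-forebrain library from one side of the brain and a library of cells isolated from the other side with beads against CD11b, a surface protein of microglia and other myeloid cells, called isolates below.

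Total counts ran from 15.1 to 75.2 M (mega-counts) per library, and the 31 genes together took 0.299% to 0.387% of the counts in forebrain and 0.328% to 0.663% in isolates. Levels are given as CPM, the count per M counts of a library, after TMM scaling over all 30 libraries. The targeted gene, Il34, read 23.1, 19.0, 18.6 and 23.2 CPM in the forebrain of Het animals 1, 20, 21 and 23, and 6.55, 7.52 and 8.31 CPM in that of KO animals 3, 6 and 24. In isolates it did not separate the arms, at 8.01, 10.3, 7.22 and 5.06 CPM in Het and 7.04, 5.17 and 6.41 CPM in KO. The Csf1r transcript, which encodes the receptor of IL-34 and marks microglia, read 3099 to 5299 CPM in Het isolates and 1273 to 1373 CPM in KO isolates. It read 3818 to 5737 CPM with a-gp120 and 2054 to 3064 CPM with a-IL34. The gene of CD11b itself, Itgam, shares 99.9% of its span with another annotated gene and held no count in 26 of the 30 libraries, so it does not check the isolation. Of 17 other microglial markers, 17 were higher in isolates than in forebrain of control animals, and 11 of 11 tested neuronal markers were lower. The isolates also held RNA of other cells, with 12 of 12 neutrophil and monocyte markers and 7 of 12 astrocyte markers higher than in forebrain. In such bulk samples fewer cells of a type and less RNA per cell cannot be told apart.

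Mammalian cells build cholesterol from acetyl-CoA through mevalonate, the farnesyl and squalene intermediates and a long series of sterol conversions. When sterol in the endoplasmic reticulum runs low, the membrane-bound factor SREBP2 (encoded by Srebf2) is released from INSIG proteins, processed and carried into the nucleus, where it raises the enzymes of this route, while SREBP1 (Srebf1) acts mainly on fatty acid enzymes. When sterol is plentiful, oxysterols activate the liver X receptors LXRα (Nr1h3) and LXRβ (Nr1h2), which raise the exporters ABCA1 and ABCG1. In the adult brain cholesterol is made locally, chiefly by astrocytes and by oligodendrocytes for myelin, and microglia that take up membrane debris export sterol as well as make it.

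Promoter sequences are shown for 4 members because the pathway is known for shared control from the region just before the start of transcription. RefSeq promoter windows of build GRCm38.p6 matched 24 of the 31 members. The 250 bases before each start were searched on both strands for CCAAT, the box bound by the factor NF-Y, and for TCACNCCAC, a form of the sterol regulatory element bound by SREBP, where N is any base. Hmgcs1, HMG-CoA synthase, holds both motifs (chr13:119690101-119690350, plus strand). Fasn, fatty acid synthase, holds 3 CCAAT matches, the last of which overlaps the one before it on the other strand (chr11:120824548-120824797, minus strand), and Mvk, mevalonate kinase, holds 5 (chr5:114444019-114444268, plus strand). Abca1, the ABCA1 exporter, holds neither (chr4:53159896-53160145, minus strand). Capitals mark matches of either motif, and ATTGG is CCAAT on the other strand.
Hmgcs1: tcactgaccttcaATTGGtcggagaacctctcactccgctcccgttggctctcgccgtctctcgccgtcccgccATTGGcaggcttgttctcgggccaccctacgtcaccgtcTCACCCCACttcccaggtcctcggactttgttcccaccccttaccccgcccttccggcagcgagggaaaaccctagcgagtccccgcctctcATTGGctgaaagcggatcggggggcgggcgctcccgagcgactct
Fasn: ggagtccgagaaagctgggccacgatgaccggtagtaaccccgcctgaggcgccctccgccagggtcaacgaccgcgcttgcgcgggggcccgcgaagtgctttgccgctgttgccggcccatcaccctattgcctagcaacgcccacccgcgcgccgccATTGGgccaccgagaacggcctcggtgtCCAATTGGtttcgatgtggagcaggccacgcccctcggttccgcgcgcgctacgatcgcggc
Mvk: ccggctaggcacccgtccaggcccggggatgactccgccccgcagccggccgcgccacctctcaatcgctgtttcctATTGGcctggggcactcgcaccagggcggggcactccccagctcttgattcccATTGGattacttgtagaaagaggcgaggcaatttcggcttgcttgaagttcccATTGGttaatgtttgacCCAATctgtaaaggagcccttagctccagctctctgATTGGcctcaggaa
Abca1: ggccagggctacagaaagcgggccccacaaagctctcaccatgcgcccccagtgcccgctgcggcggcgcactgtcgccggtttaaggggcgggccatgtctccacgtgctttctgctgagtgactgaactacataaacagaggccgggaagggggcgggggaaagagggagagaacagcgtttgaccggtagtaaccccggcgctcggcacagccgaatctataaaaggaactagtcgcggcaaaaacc
In the Hmgcs1 sequence the element TCACCCCAC starts 137 bases before the start of transcription, between CCAAT matches 176 and 45 bases before it, and a further match lies at 237 bases. CCAAT was present in 18 of the 24 members (75%), against 10133 of 27025 genes with a window (37.5%), a gene with several windows counting where any of them held the motif. TCACNCCAC was present in 1 of 24 (4.17%) against 331 of 27025 genes (1.22%). The 6 members without CCAAT in any window were Abca1, Nr1h2, Nr1h3, Acly, Acaca and Acat2. The Acaca window (chr11:84195188-84195437, plus strand) lies inside the annotated gene (chr11:84129672-84401651). The Nr1h3 windows also lie inside the annotated gene, so the region before the first annotated start of Acaca and Nr1h3 was not searched. These matches are descriptions of letters and not of bound sites.

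For some members the count itself is uncertain, because reads appear to have been assigned over whole gene spans and the use of strand is not stated. Exons or spans of 12 members overlap another annotated gene, and 6 match the transcripts of another gene that does not overlap them (at least 95% identity over at least 300 bases). Fdps, farnesyl diphosphate synthase, held only 649 counts over all 30 libraries while the 4 genes that match it held 9814. Idi1, isopentenyl diphosphate isomerase, held 11059 against 16331 in Idi1-ps1, and Acaca, acetyl-CoA carboxylase, held 64766 against 54227 in Gm5182. Hmgcs1 shares 46.6% of its exon bases with Gm48342 on the other strand, which held 105 counts. Reads left out of both genes would appear in neither count. Fdft1, squalene synthase, shares 18.3% of its exon bases with Ctsb on the other strand, a gene with far more counts, and Acat2 overlaps in sequence with Tcp1. Scd2 and Scd1, the stearoyl-CoA desaturases, are 95.5% identical over their matching stretch. Per length of gene, Scd2 ranked first among the 31 members in the authors' deposited TPM values, at 2715 ± 89.8 in Het forebrain and 2449 ± 1134 in Het isolates (SD, n = 4), and Fdps ranked last, at 2.54 ± 0.461 and 1.22 ± 0.536.

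The first comparison asked where in the control brain these genes are read, setting the isolates of the 8 control mice (Het and a-gp120) against their forebrain. The exporters Abca1 and Abcg1, the liver X receptors Nr1h2 and Nr1h3, and Srebf1 and Insig1 were higher in isolates, while Srebf2 and most of the mevalonate and sterol enzymes that differed were lower. Of the 31 members 21 passed the test (edgeR quasi-likelihood F test, Benjamini-Hochberg adjusted p under 0.05 over 19952 genes), 8 higher and 13 lower. In this contrast 83.5% of all genes tested passed, 40.5% higher and 43% lower, so the members' share of calls was below the background. The members' median log2 difference was -0.19 against -0.05 over all genes.

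Among the transport and receptor genes, Abca1 (chr4:53030787-53159895) stood highest. It read 71.2 CPM at the lowest, 79.3 at the median and 86.9 at the highest in the 8 forebrain libraries, and 526, 739 and 1022 CPM in the isolates. The 2 sets of libraries did not overlap, and the log2 difference was 3.29 ± 0.13 (SE; edgeR adjusted p = 8.69e-13). Nr1h2, which encodes LXRβ, read 9.58 to 16.9 CPM (median 14) in forebrain and 30.8 to 45.8 CPM (median 38.6) in isolates, a log2 difference of 1.46 ± 0.10 (edgeR adjusted p = 7.94e-10). Abcg1, the partner exporter that loads sterol onto lipoprotein particles, rose by 1.22 ± 0.12, and Nr1h3 (LXRα) by 0.53 ± 0.14 from a low level of 1.76 to 2.47 CPM. Stard4, a cytosolic sterol carrier (chr18:33199355-33213862), was slightly lower in isolates, at -0.19 ± 0.06 (edgeR adjusted p = 0.00811).

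Of the sensing genes, Srebf1 and Insig1 were higher in isolates and Srebf2 was lower. Srebf1 read 11.9 to 18 CPM (median 15.9) in forebrain and 41.0 to 54.4 CPM (median 46.4) in isolates, with a log2 difference of 1.58 ± 0.08 (edgeR adjusted p = 3.11e-11). Insig1, which holds SREBP in the endoplasmic reticulum, read 46.8 to 68.5 CPM (median 60.2) in forebrain and 89.4 to 176 CPM (median 147) in isolates, with a log2 difference of 1.22 ± 0.12 (edgeR adjusted p = 8.75e-08). For neither gene did the tissues overlap. Srebf2 differed by -0.37 ± 0.09 (edgeR adjusted p = 0.00156).

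Of the mevalonate enzymes 5 of 7 were lower in isolates and 0 higher, and of the enzymes of the later sterol steps 5 of 11 were lower and 1 higher, where 43% of all genes were lower and 40.5% higher. Acat2, the thiolase of the first step, read 32.5 to 38.9 CPM (median 36.6) in forebrain and 12.8 to 22.7 CPM (median 18.9) in isolates, a log2 difference of -0.96 ± 0.12 (edgeR adjusted p = 9.4e-07). Hsd17b7, a sterol ketone reductase, read 26.9 to 34.1 CPM (median 30.4) and 9.93 to 24.1 CPM (median 16.5), at -0.88 ± 0.17 (edgeR adjusted p = 0.000175). Neither gene overlapped between the tissues. Fdft1 read 63.3 to 83.6 CPM (median 79.2) and 29.8 to 60.9 CPM (median 43.7), at -0.82 ± 0.15 (edgeR adjusted p = 6.71e-05). Sqle, squalene epoxidase, a rate-limiting enzyme, read 66.8 to 84.9 CPM (median 78.3) and 27.9 to 62.5 CPM (median 43.6), at -0.80 ± 0.17 (edgeR adjusted p = 0.000304). Both genes were lower in every isolate than in any forebrain library. The other calls lower were Hmgcs1 (-0.79), Fdps (-0.65), Idi1 (-0.57), Tm7sf2 (-0.55), Pmvk (-0.50) and Dhcr7 (-0.30). Ebp, the sterol isomerase, was the exception among the sterol enzymes, with a rise of 0.80 ± 0.07 (edgeR adjusted p = 3.99e-08).

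In fatty acid synthesis, Acly, which splits citrate to give acetyl-CoA, rose by 0.49 ± 0.06 and Acaca fell by 0.59, while Fasn, Scd1 and Scd2 did not pass. The desaturases were spread widely among isolates, Scd2 from 851 to 2978 CPM against 1203 to 1393 CPM in forebrain. Over the 31 members, 7 had every isolate above every forebrain library and 5 every isolate below, where 28.8% and 31.5% of all genes did. Treating the animal as a block gave 22 calls, adding Lss as lower, where 82.8% of all genes passed. Leaving out a mouse in turn gave 18 to 23 calls, where 81.5% to 83.7% of all genes passed. The a-gp120 mice alone gave 9 members higher and 5 lower (75.9% of all genes called), and the Het mice alone 7 higher and 13 lower (76.9%). Other genes of the pathway were read from lists of their own. Of 24 LXR targets and sterol handling genes 18 were higher and 4 lower. The 4 with the smallest p were Mylip, an LXR target that degrades the LDL receptor (4.17 ± 0.12), Npc2 (2.98 ± 0.11) and Npc1 (1.94 ± 0.07), which release cholesterol from lysosomes, and Lpcat3 (2.44 ± 0.09), a phospholipid acyltransferase, the largest of whose edgeR adjusted p was 8.42e-13. Of 27 further synthesis genes 9 were higher and 13 lower. Of 8 further SREBP control genes 4 were higher and 1 lower. All 12 genes of a list of dissociation-induced transcripts were also higher in isolates, with a median log2 difference of 6.06, and their part in these results was not tested. Isolation procedure and cell composition cannot be told apart in this contrast.

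The next comparison asked what deletion of Il34 did to these genes in the CD11b isolates. No member passed the test, but most synthesis enzymes had higher levels in all 3 KO isolates than in all 4 Het isolates, and the exporters Abca1 and Abcg1 had lower ones. With edgeR 0 of 31 were called, where 5.37% of 18185 genes were. At an unadjusted p under 0.05 there were 19 members, 17 higher and 2 lower, where 32.6% of all genes reached it (14.4% higher, 18.2% lower). That count turned on single mice: it was 0 without KO animal 3 (12.5% of all genes), 2 without KO animal 24 (20.4%), 3 without Het animal 20 (22.3%) and 14 to 24 without each of the other 4. The log2 fold change was positive for 25 members and negative for 6, with a median of 0.55 against 0.02 over all genes. Every KO value was above every Het value for 19 members, where 17.7% of all genes did so, and below for 2, where 20% did. DESeq2 called 10 members against 21.4% of all genes.

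All 7 mevalonate genes had positive fold changes (median 0.61, range 0.38 to 0.91), with no overlap between arms for 5. Of the 11 later sterol genes 10 were positive (median 0.70, range -0.09 to 0.79), with no overlap for 9. Idi1 (chr13:8885501-8892451) read 7.47, 6.43, 5.0 and 10.5 CPM in the isolates of Het animals 1, 20, 21 and 23, and 11.5, 11.4 and 17.7 CPM in those of KO animals 3, 6 and 24. All KO isolates were above all Het isolates, KO animal 24 most, and the log2 fold change was 0.83 ± 0.26 (edgeR adjusted p = 0.107). Fdft1 (chr14:63145150-63179578) read 54.9, 38.3, 31.8 and 51.2 CPM in Het and 67.8, 64.4 and 84.1 CPM in KO, in the same order of animals. Here too the arms did not overlap, and the fold change was 0.70 ± 0.22 (edgeR adjusted p = 0.108). Hmgcs1, whose promoter above holds both motifs, read 383, 233, 167 and 345 CPM in Het and 456, 479 and 644 CPM in KO (0.87 ± 0.32, edgeR adjusted p = 0.131). All KO isolates were above all Het isolates, and the Het isolates were widely spread. Sqle (0.79 ± 0.28), Tm7sf2 (0.76), Hsd17b7 (0.76), Lss (0.72), Cyp51, lanosterol demethylase (0.70 ± 0.25), and Msmo1, the C4-methylsterol oxidase (0.62 ± 0.20), had fold changes of like size, with edgeR adjusted p from 0.112 to 0.162. Ebp, at -0.09 ± 0.19, was the sterol gene without a positive value.

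Of the fatty acid genes 4 of 5 were positive and did not overlap between arms. Scd1 read 350, 193, 102 and 211 CPM in Het animals 1, 20, 21 and 23 and 421, 361 and 406 CPM in KO animals 3, 6 and 24 (0.92 ± 0.39, edgeR adjusted p = 0.153). Scd2 read 2255, 1324, 851 and 1722 CPM in Het and 2644, 2727 and 3185 CPM in KO (0.89 ± 0.37, edgeR adjusted p = 0.153). In both genes Het animal 1 lay nearest to the KO isolates and Het animal 21 lay farthest below. Acly was the fatty acid gene with a negative value, at -0.27 ± 0.15.

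The transport, receptor and sensing genes had values of both signs. Abcg1 (chr17:31057675-31117988) read 66.8, 76.8, 125 and 95.2 CPM in the isolates of Het animals 1, 20, 21 and 23 and 41.8, 46.4 and 53.4 CPM in those of KO animals 3, 6 and 24. All KO isolates were below all Het isolates, and the log2 fold change of -0.94 ± 0.24 had the smallest p of the 31 members (edgeR adjusted p = 0.0756). Abca1 read 526, 650, 929 and 723 CPM in Het and 444, 480 and 479 CPM in KO, again without overlap (-0.59 ± 0.23, edgeR adjusted p = 0.142). Stard4 read 31.5, 30.9, 30.7 and 28.9 CPM in Het and 40.0, 36.0 and 44.1 CPM in KO. Its Het isolates were close together and all below the KO isolates, and the fold change was 0.41 ± 0.12 (edgeR adjusted p = 0.0939). Nr1h2 had a value of -0.25 ± 0.13 and Nr1h3 of 0.26 ± 0.24. Among the sensing genes, Srebf1 had 0.03 ± 0.11, Srebf2 0.28 ± 0.14 and Insig1 -0.44 ± 0.27, and the arms overlapped in all 3.

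Which members passed turned on single Het mice. Without Het animal 1, edgeR called 21 of the 31 members, where 31.5% of all genes passed: 19 higher, and Abca1 and Abcg1 lower (adjusted p from 0.0168 to 0.0493). Without Het animal 21 it called 3, where 17.2% of all genes passed: Scd1 and Stard4 higher and Abcg1 lower. Leaving out any of the other 5 mice gave 0 calls, in fits where no gene of the whole table passed. DESeq2 called Cyp51, Fdft1, Hmgcs1, Idi1, Msmo1, Scd2, Sqle, Stard4 and Tm7sf2 higher and Abcg1 lower. Without a filter on low counts, Fdft1 (higher) and Abcg1 (lower) passed, where 6.78% of all genes did, and without the sex term Stard4 (higher) and Abcg1 (lower) passed, where 12% did.

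Among the other genes of the pathway, 6 of 24 LXR targets and sterol handling genes fell and 0 rose, and 1 of 8 SREBP control genes fell, where 5.22% of all genes fell and 0.143% rose. Mylip read 317, 434, 503 and 375 CPM in Het animals 1, 20, 21 and 23 and 152, 169 and 121 CPM in KO animals 3, 6 and 24, a log2 fold change of -1.45 ± 0.22 (edgeR adjusted p = 0.0204). Stard3, which tethers lysosomes for cholesterol transfer, read 43.0, 53.5, 59.5 and 51.2 CPM and 21.0, 23.7 and 23.1 CPM (-1.20 ± 0.14, edgeR adjusted p = 0.0136). Abca7, a lipid exporter, read 29.4, 35.8, 31.5 and 34.5 CPM and 19.8, 17.5 and 19.6 CPM (-0.79 ± 0.12, edgeR adjusted p = 0.0208). In all 3 genes the KO isolates lay well below the Het isolates. Lpin1, a phosphatidate phosphatase, read 65.0, 68.2, 81.8 and 73.9 CPM and 45.5, 44.8 and 44.3 CPM (-0.67 ± 0.12, edgeR adjusted p = 0.0285). The calls of these 4 genes were lost without Het animal 20, Het animal 23 or any of the 3 KO animals, fits in which no gene of the whole table passed. Of 27 further synthesis genes 0 passed with edgeR, with 20 positive and a median of 0.40. At an unadjusted p under 0.05 there were 9, a share near the 32.6% of all genes. By direction 8 were higher, where 14.4% of all genes were, and 1 lower, where 18.2% were. The arms did not overlap for 13 that were higher and 2 that were lower, where 17.7% and 20% of all genes did not.

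Markers of other cells moved in the same isolates. All 17 tested microglial markers fell (median log2 fold change -1.56), and their summed level was 14027 to 23978 CPM in Het and 5533 to 6013 CPM in KO. All 12 astrocyte markers had positive values (median 0.95, 0 called), with summed levels of 3402 to 12328 CPM in Het and 13656 to 17015 CPM in KO. All 15 oligodendrocyte lineage markers were positive (median 0.86, 0 called; 3401 to 11518 CPM against 9252 to 20635 CPM), as were 11 of 11 tested neuronal markers (median 0.99, 0 called; 710 to 2720 CPM against 2394 to 4060 CPM). Tubb3, a neuronal marker, was at 0 in all 30 libraries, and Itgam was at or near 0 in all. Of 12 dissociation-induced transcripts 5 fell, and all were negative (median -1.04; 7652 to 13930 CPM in Het and 3908 to 4666 CPM in KO). All 8 choroid plexus markers were negative (median -0.52, 0 called; 1701 to 3916 CPM against 1174 to 3089 CPM). The endothelial and mural list had a median of 0.11 (11 of 12 positive; 1137 to 2072 CPM in Het and 1497 to 1953 CPM in KO), the neutrophil and monocyte list 0.31 (10 of 12; 52.4 to 76.5 CPM against 50.02 to 130.3 CPM) and the border macrophage list -0.16 (1 of 8; 799 to 959 CPM against 425 to 869 CPM), with 0 called in each. The part of these other cells and of the dissociation transcripts in the members' values was not tested.

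The antibody comparison in isolates asked whether blocking IL-34 in wild-type mice did the same. No member passed here either, and the members had a median log2 fold change of 0.27. With edgeR 0 of 31 were called, where 0.626% of 17570 genes were, and 5 reached an unadjusted p under 0.05 (3 higher, 2 lower) where 25.9% of all genes did. That count was 17 without a-gp120 animal 15 (50.5% of all genes) and 1 to 5 without each of the other mice. Values were positive for 23 members and negative for 8, and the median over all genes was 0.06. The arms did not overlap for Pmvk, which was higher, where 4.76% of all genes did not, and for Insig1, Acly and Mvd, which were lower, where 10.8% did not. DESeq2 called 2 members, Insig1 (adjusted p = 0.0237) and Acly (adjusted p = 0.0473), both lower, where 11.5% of all genes passed.

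Insig1 (chr5:28071363-28078662) read 151, 159, 139 and 143 CPM in the isolates of a-gp120 animals 1, 7, 8 and 15, and 126, 97.6, 116 and 115 CPM in those of a-IL34 animals 2, 10, 11 and 24. Every a-IL34 isolate was below every a-gp120 isolate, and the log2 fold change was -0.39 ± 0.12 (edgeR adjusted p = 0.117). Acly read 236, 230, 231 and 220 CPM with a-gp120 and 200, 194, 205 and 187 CPM with a-IL34. Its values were close together within each arm, and the fold change was -0.22 ± 0.09 (edgeR adjusted p = 0.191). Srebf2 read 106, 119, 100 and 137 CPM and 166, 154, 136 and 143 CPM, with a-gp120 animal 15 inside the a-IL34 range (0.36 ± 0.14, edgeR adjusted p = 0.17). Pmvk, phosphomevalonate kinase, read 14.2, 19.8, 17.1 and 19.2 CPM and 21.1, 24.1, 21.6 and 26.0 CPM, without overlap (0.40 ± 0.15, edgeR adjusted p = 0.173).

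By role, the median log2 fold change was 0.40 in the mevalonate group, 0.26 in the later sterol steps, 0.24 in sensing, 0.45 in fatty acid synthesis and -0.11 in the receptor and transport group. The exporters had values of -0.39 ± 0.18 (Abcg1) and -0.30 ± 0.15 (Abca1). Abcg1 read 123, 103, 133 and 81.2 CPM in a-gp120 animals 1, 7, 8 and 15 and 79.6, 71.8, 92.2 and 89.5 CPM in a-IL34 animals 2, 10, 11 and 24. The isolate of a-gp120 animal 15 lay within the a-IL34 range. Scd2 read 994, 1810, 1102 and 2978 CPM with a-gp120 and 2514, 2862, 1816 and 2896 CPM with a-IL34, and the isolate of animal 15 was the highest of all 8. Without that mouse edgeR called 14 members, where 40.4% of all genes passed: 10 higher (Acaca, Cyp51, Fdft1, Hmgcs1, Hsd17b7, Idi1, Scd1, Scd2, Sqle and Srebf2) and 4 lower (Abca1, Abcg1, Acly and Insig1). Other genes of the pathway gave 0 calls in the 3 lists, with Mylip nearest (-0.80 ± 0.15, edgeR adjusted p = 0.0565).

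Markers moved here as well. Of 17 microglial markers 8 fell (median -1.01; summed level 17905 to 24348 CPM with a-gp120 and 7707 to 12099 CPM with a-IL34). The astrocyte list had a median of 0.68 (12 of 12 positive; 5221 to 19974 CPM against 11283 to 20649 CPM), the oligodendrocyte list 0.63 (15 of 15; 4538 to 11168 CPM against 7016 to 14733 CPM) and the neuronal list 0.94 (11 of 11; 1256 to 4373 CPM against 3465 to 5465 CPM), with 0 called in each. The neutrophil and monocyte list had a median of 0.82 (11 of 12 positive; 72.5 to 418 CPM against 281 to 651 CPM), the endothelial and mural list 0.21 (11 of 12; 1559 to 2186 CPM against 1662 to 2629 CPM) and the border macrophage list -0.46 (2 of 8; 556 to 1051 CPM against 402 to 575 CPM), again with 0 called. Of 8 choroid plexus markers 7 were tested, all positive (median 2.94, 0 called, 7 at an unadjusted p under 0.05), with summed levels of 6.01 to 11.3 CPM with a-gp120 and 10.7 to 2212 CPM with a-IL34. All 12 dissociation-induced transcripts were negative (median -0.47, 0 called, 4 at an unadjusted p under 0.05; 9656 to 14475 CPM against 6837 to 10078 CPM). The part of these lists in the members' values was not tested.

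**Figure D1:**
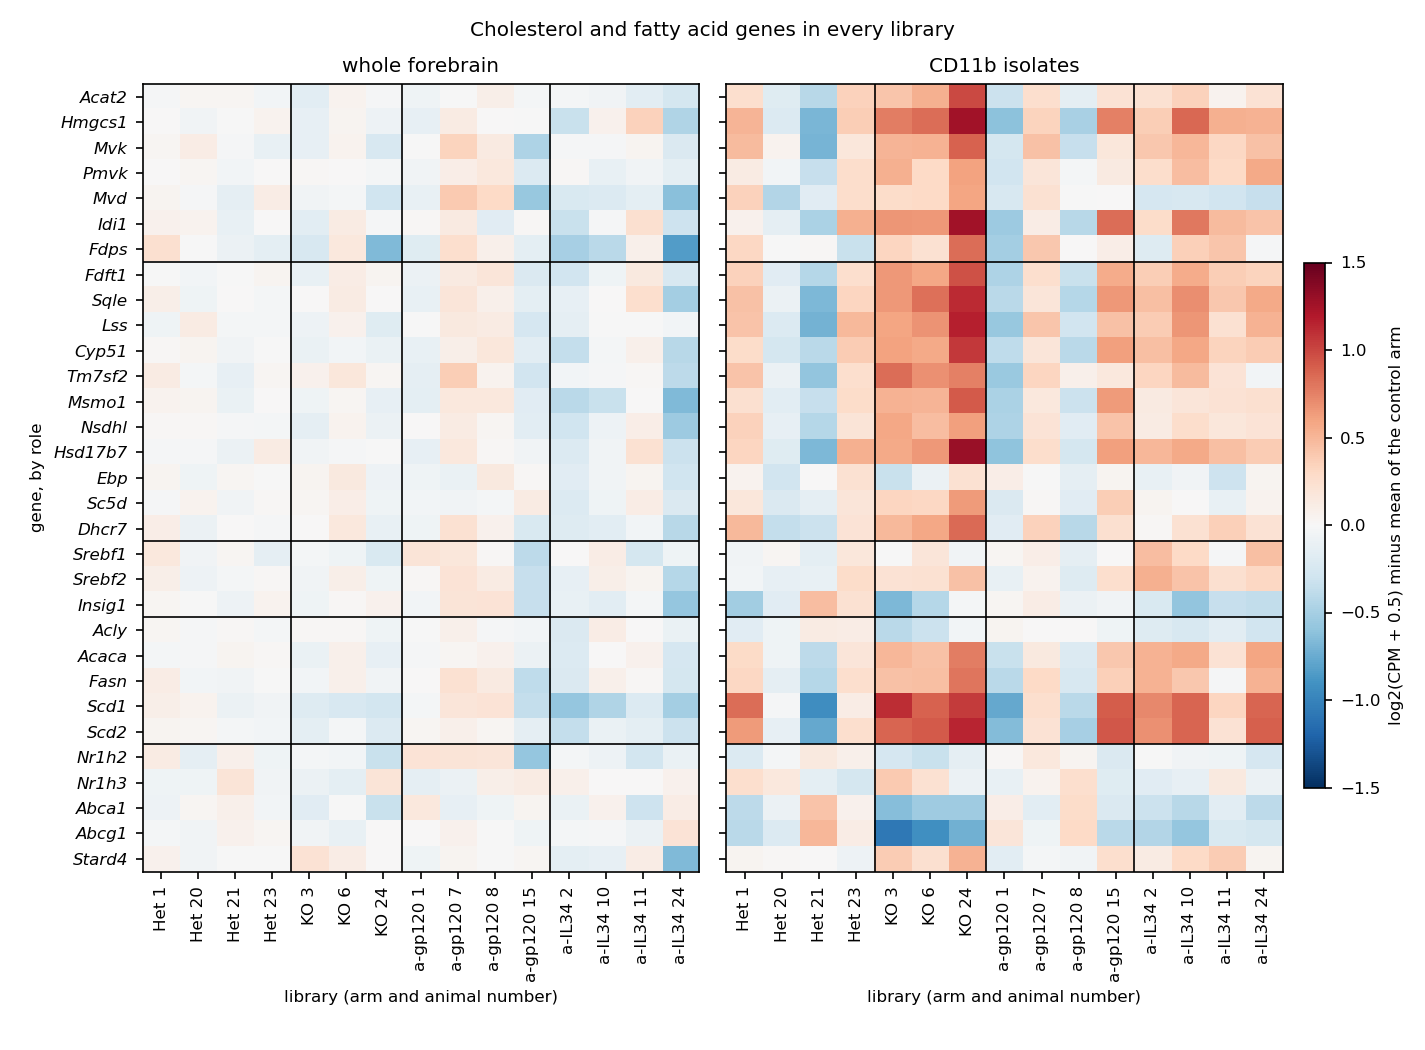
Level of each of the 31 genes (rows, by role) in each of the 30 libraries (columns, by arm and animal number), as log2(CPM + 0.5) minus the mean of the control arm of the same tissue and experiment, with red above and blue below it. The KO isolates are red for most synthesis genes and blue for Abca1 and Abcg1. The isolates of Het animal 21 and a-gp120 animal 1 are blue for most synthesis genes within their own arms, and most forebrain columns are pale.

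**Figure D2:**
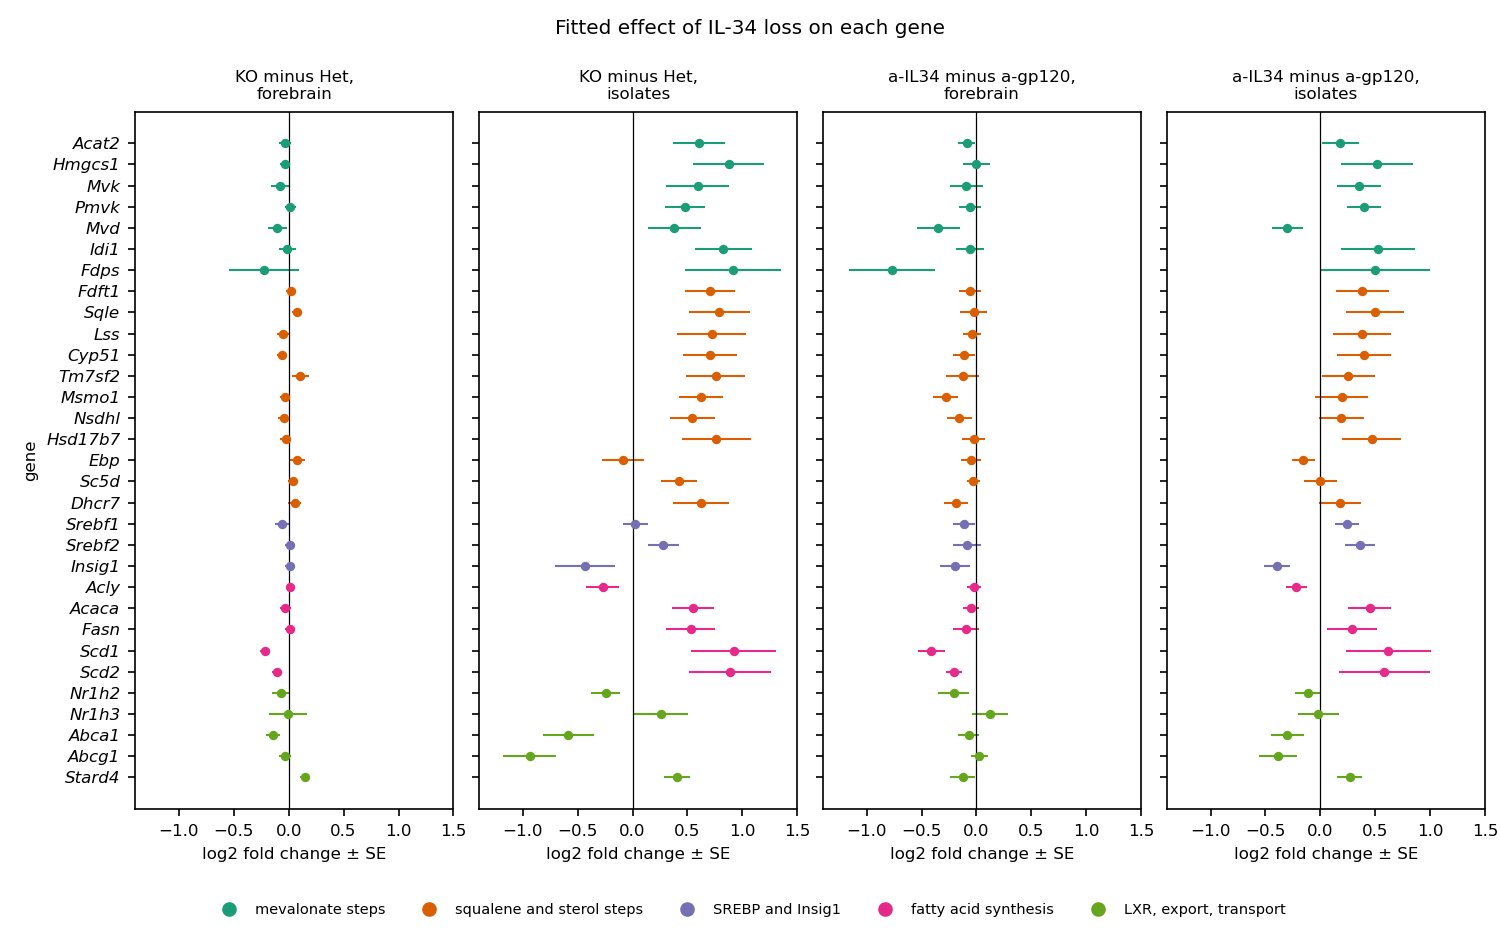
Log2 fold change of each of the 31 genes in each comparison of arms, with bars of ± 1 SE from edgeR and genes grouped by role. In KO isolates the mevalonate and sterol genes lie mostly between 0.38 and 0.91 while Abca1 and Abcg1 lie at -0.59 and -0.94, and in antibody forebrain Fdps and Scd1 lie farthest from 0, at -0.77 and -0.41.

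In the Het, KO and a-gp120 arms the 23 enzymes of synthesis varied more among isolates than among forebrain libraries, and in the a-IL34 arm they varied less. The median SD of their log2 level was 0.0615 in Het forebrain and 0.372 in Het isolates, and 0.158 in a-gp120 forebrain and 0.384 in a-gp120 isolates. The highest library of an arm exceeded the lowest by a median factor of 1.11 and 1.76 in Het forebrain and isolates, and of 1.26 and 1.92 with a-gp120. The median SD was 0.0862 in KO forebrain and 0.209 in KO isolates, and 0.167 in a-IL34 forebrain and 0.139 in a-IL34 isolates, where the median factors were 1.30 and 1.24. Het animal 1 had the highest isolate level for 13 of the 23 enzymes and Het animal 23 for 9, while animal 21 had the lowest for 17. In a-gp120 isolates animal 15 was highest for 14 and animal 7 for 7, and animal 1 was lowest for 17. KO animal 24 was highest for 21.

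Marker lists also differed among the isolates of an arm. The mean log2 level of the astrocyte list was 8.33, 7.74, 6.76 and 7.83 in Het animals 1, 20, 21 and 23, and that of the 11 later sterol genes was 5.49, 4.97, 4.74 and 5.47. In a-gp120 animals 1, 7, 8 and 15 the astrocyte list read 7.20, 7.95, 7.42 and 8.89, the oligodendrocyte list 6.14, 6.97, 6.17 and 7.36 and the sterol genes 4.83, 5.42, 4.95 and 5.65. In a-IL34 animals 2, 10, 11 and 24 the astrocyte list read 8.62, 8.71, 8.15 and 9.03, the oligodendrocyte list 7.44, 7.70, 6.74 and 7.73 and the sterol genes 5.45, 5.59, 5.42 and 5.48. In KO animals 3, 6 and 24 the astrocyte list read 8.71, 8.59 and 8.72, a narrow range, while the sterol genes ran from 5.66 to 6.04. The oligodendrocyte list read 7.50, 6.30, 5.93 and 7.58 in the Het isolates and 7.50, 7.71 and 8.41 in the KO isolates, where animal 24 was also the one with the highest enzymes. Het animal 21, a-gp120 animal 1 and a-IL34 animal 11 were each lowest of their arm in both lists and in the sterol genes. The microglia list ran the other way and was highest of the arm in the same 3 animals, at 9.09, 9.18 and 8.22. The part of such cells in the spread of the enzymes was not tested.

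**Figure D3:**
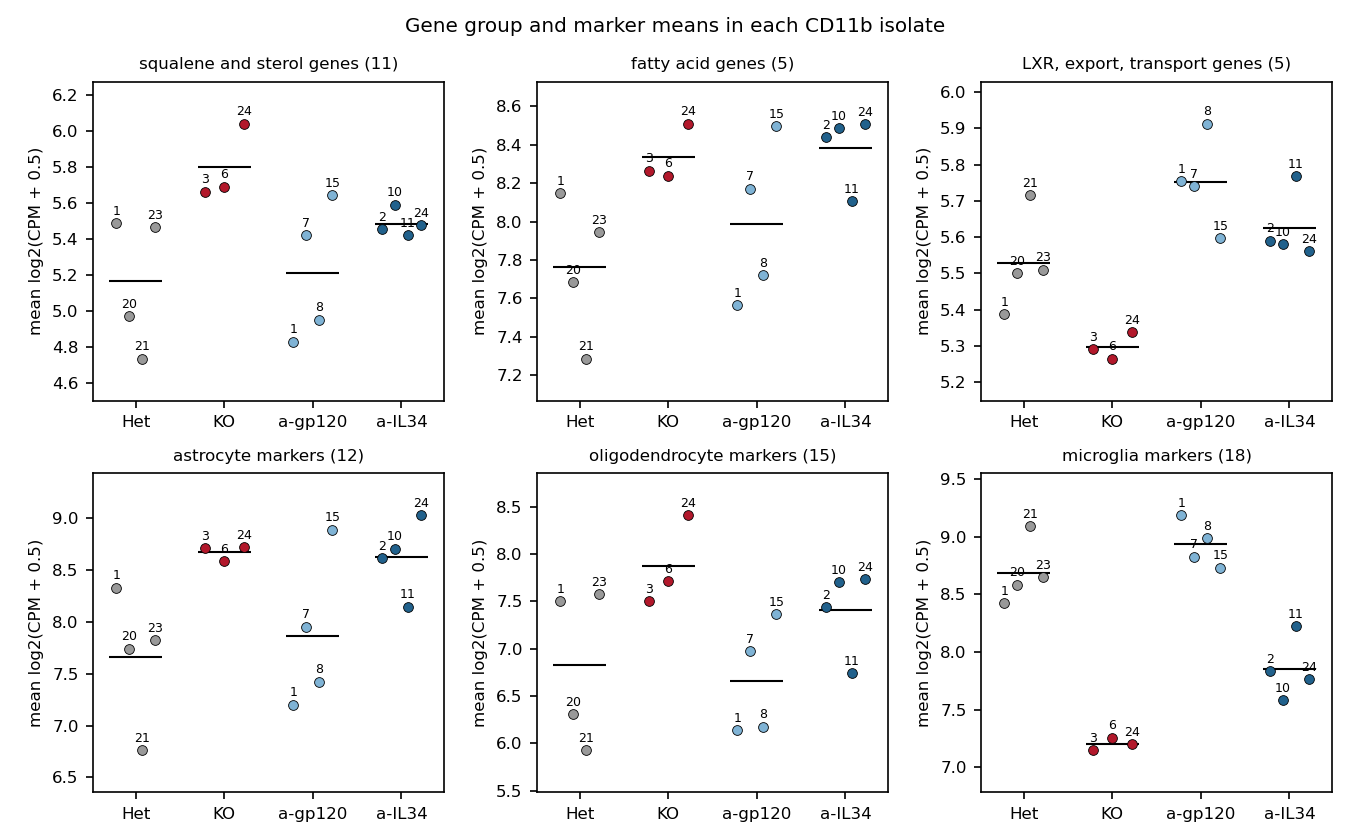
Mean log2(CPM + 0.5) in each of the 15 isolates of 3 member groups (upper row) and of the astrocyte, oligodendrocyte and microglia marker lists (lower row), with animal numbers beside the points and bars at the mean of each arm. Het animal 21 is lowest of its arm in the sterol genes (4.74) and in the astrocyte list (6.76) and highest in the microglia list (9.09).

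In whole forebrain no member passed the test for the deletion. With edgeR 0 of 31 were called, where 0.62% of 19343 genes were. At an unadjusted p under 0.05 there were 3 (1 higher, 2 lower), where 7.45% of all genes reached it (2 to 5 without each mouse in turn, 5 without KO animal 6), and 12 values were positive and 19 negative, with a median of -0.03 against -0.00 over all genes. Scd1 was the member whose arms did not overlap, lower in KO, where 6.24% of all genes were so, and 0 members were higher without overlap, where 2.09% were. Scd1 (chr19:44394455-44407879) read 197, 192, 175 and 178 CPM in Het animals 1, 20, 21 and 23 and 162, 156 and 153 CPM in KO animals 3, 6 and 24. The arms were separated by a narrow gap, and the fold change was -0.22 ± 0.05 (edgeR adjusted p = 0.0901). DESeq2 called it (adjusted p = 0.0102), where 0.92% of all genes passed, as did edgeR without the filter on low counts (adjusted p = 0.00046; 1.24% of all genes) and without the sex term (adjusted p = 0.0467; 0.631%). No other member passed in these fits.

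Scd2 (chr19:44293674-44306864), the main brain desaturase, read 1375, 1371, 1315 and 1305 CPM in Het and 1216, 1310 and 1164 CPM in KO (-0.11 ± 0.05, edgeR adjusted p = 0.632), and KO animal 6 lay inside the Het range. Stard4 read 37.8, 35.0, 36.0 and 36.2 CPM and 42.0, 39.2 and 36.4 CPM (0.15 ± 0.05, edgeR adjusted p = 0.373). Abca1 read 76.4, 82.8, 85.5 and 78.8 CPM and 72.0, 80.3 and 64.0 CPM (-0.14 ± 0.07, edgeR adjusted p = 0.676). In both genes the arms overlapped. The sterol enzymes had a median of 0.02 and the mevalonate genes of -0.04. None of the 27 synthesis, 8 SREBP control and 23 tested LXR and sterol handling genes of the other lists passed with edgeR, and 4, 0 and 4 of them reached an unadjusted p under 0.05, where 7.45% of all genes did. In the same libraries 15 of 17 microglial markers fell (median -1.29; summed level 281 to 328 CPM in Het and 121 to 143 CPM in KO), 6 of 15 oligodendrocyte lineage markers fell (median -0.29), and 0 of 12 astrocyte markers passed (median -0.06). Their part in the values of Scd1 and Scd2 was not tested.

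In the forebrain of antibody-treated mice 0 of 31 members were called by edgeR, where 0.717% of 17143 genes were, and 28 of the 31 values were negative (median -0.09 against 0.00 over all genes). Without a-gp120 animal 7, 19 were negative, with a median of -0.02. At an unadjusted p under 0.05 there were 3, all lower, where 4.86% of all genes reached it (9 without a-gp120 animal 15, 6 without a-IL34 animal 11, 2 or 3 otherwise), and DESeq2 called 0, where 1.15% of all genes passed. No member had arms without overlap, where 0.776% of all genes were higher and 2.67% lower in this way. Scd1 read 232, 269, 274 and 184 CPM in a-gp120 animals 1, 7, 8 and 15 and 159, 173, 206 and 166 CPM in a-IL34 animals 2, 10, 11 and 24. The a-gp120 animal 15 lay inside the a-IL34 range, and the fold change was -0.41 ± 0.12 (edgeR adjusted p = 0.344). Without animal 15 Scd1 passed (edgeR adjusted p = 0.00504), where 0.724% of all genes did. Scd2 read 1348, 1393, 1352 and 1203 CPM and 1033, 1231, 1198 and 1058 CPM (-0.21 ± 0.07, edgeR adjusted p = 0.669). Here animal 15 was again the lowest of its arm and within the a-IL34 range.

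Msmo1 read 87.4, 108, 108 and 86.0 CPM in the same a-gp120 forebrains and 73.1, 76.9, 97.1 and 61 CPM with a-IL34 (-0.28 ± 0.12, edgeR adjusted p = 0.928). Fdps read 0.494, 0.842, 0.689 and 0.519 CPM and 0.301, 0.35, 0.69 and 0.131 CPM (-0.77 ± 0.39, edgeR adjusted p = 0.999), at levels where its matching genes held most of the reads. The arms overlapped in both, with a-IL34 animal 11 inside the control range. Without the filter on low counts Msmo1 and Scd1 passed, both lower, where 1.15% of all genes did. Of the microglial markers 14 of 17 fell (median -1.30), while the astrocyte and oligodendrocyte lists had medians of -0.13 and -0.06 with 0 called. Their part in these values was not tested.

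Whether an arm acted differently in isolates and forebrain was tested as an interaction. For the deletion 0 of 31 members passed with edgeR, where 2.98% of 20107 genes did, and 21 reached an unadjusted p under 0.05 (20 higher in isolates, 1 lower), where 31% of all genes did. That count was 3 without KO animal 3 (11% of all genes), 6 without Het animal 20 (22.8%) or KO animal 24 (20.1%), and 18 to 23 otherwise. The median difference was 0.61 against 0.12 over all genes. Abcg1 (-0.88 ± 0.27, edgeR adjusted p = 0.0804) and Msmo1 (0.69 ± 0.21, edgeR adjusted p = 0.0815) had the smallest p. In forebrain Abcg1 read 41.7, 40.9, 44.4 and 43.4 CPM in Het and 41.0, 39.5 and 42.8 CPM in KO, a narrow range shared by both arms. DESeq2 called 10 members (9 higher, Abcg1 lower), where 18.1% of all genes passed. Fits without the filter and without the sex terms called 5 each, where 4.82% and 11.9% of all genes passed. Without Het animal 1 edgeR called 18 members (28.5% of all genes) and without Het animal 21 it called 7 (16.3%). Of the other pathway genes, Stard3 (-1.20 ± 0.17, edgeR adjusted p = 0.00919), Abca7 (-0.71 ± 0.12, edgeR adjusted p = 0.0164) and Mylip (-1.36 ± 0.25, edgeR adjusted p = 0.0223) passed. With the animal as a block they did not (edgeR adjusted p = 0.0889, 0.102 and 0.0993).

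For the antibody 0 of 31 members passed this test, where 0.0924% of 18399 genes did, and 5 reached an unadjusted p under 0.05, where 21.1% of all genes did. That count was 21 without a-gp120 animal 15 (41% of all genes), 10 without a-IL34 animal 11 (30.8%) and 0 to 2 without each of the others. DESeq2 called 0, where 5.94% of all genes passed. Pmvk (0.45 ± 0.18, edgeR adjusted p = 0.209) and Scd1 (1.03 ± 0.42, edgeR adjusted p = 0.21) had the smallest p. Scd1 in isolates read 186, 378, 240 and 596 CPM in a-gp120 animals 1, 7, 8 and 15 and 521, 580, 396 and 583 CPM in a-IL34 animals 2, 10, 11 and 24, so the isolate of animal 15 was the highest while its forebrain was the lowest of its arm. Without the filter Scd1 passed, where 4.15% of all genes did, and without animal 15 edgeR called 13 members, where 29.9% of all genes passed.

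The deletion and the antibody were also compared directly, as the difference of their effects. In forebrain 0 of 31 members differed, where 0.0101% of 19724 genes did, and 0 reached an unadjusted p under 0.05, where 3.07% of all genes did. In isolates 0 of 31 differed, where 0% of 18732 genes did. Mvd, mevalonate pyrophosphate decarboxylase, was the single member at an unadjusted p under 0.05 (0.70 ± 0.26), where 3.95% of all genes reached it. The members' median difference was 0.07 in forebrain and 0.31 in isolates. DESeq2 called 0 members in either tissue, where 0.142% of all genes passed in forebrain and 0.187% in isolates. These tests do not show that the deletion and the antibody acted alike.

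Finally, the members were sorted by where they are read in the control brain, and each class was read in the experiment whose libraries had no part in the sorting. Sorted in a-gp120 mice alone, 9 members were higher in isolates: Abca1, Abcg1, Acly, Ebp, Insig1, Nr1h2, Nr1h3, Sc5d and Srebf1. In KO isolates 6 of these had negative and 3 positive fold changes, where 77.7% of all genes of that class had negative ones. The 5 members lower in isolates (Acaca, Acat2, Fdft1, Hsd17b7 and Sqle) were positive in 5 of 5, where 80.2% of all such genes were, and the 17 not called were positive in 17 of 17, where 57.7% were. Sorted in Het mice alone, 7 members were higher in isolates, of which 6 had negative values with a-IL34 and Srebf1 a positive one, where 67.6% of all genes of that class were negative. The 13 lower ones were positive in 13 of 13, where 78.4% of all such genes were, and of the 11 not called 9 were positive and 2 negative, where 55.4% were positive. The higher and lower classes thus leaned the same way over all genes as over the members, and that lean is not particular to them. Of the members not called, 17 of 17 and 9 of 11 were positive, larger shares than the 57.7% and 55.4% over all genes. The single values for Abca1, -0.59 ± 0.23 in KO and -0.30 ± 0.15 with a-IL34, stand against 0.79 ± 0.28 and 0.50 for Sqle. Of the 18 members with CCAAT in the promoter window, 16 had positive and 2 negative values in KO isolates, and of the 6 without it 3 were positive and 3 negative. The 6 include 4 of the members that were higher in isolates, so the promoter letters and the tissue of higher level were not separated. They also include Acaca and Nr1h3, whose windows lie inside the annotated gene.

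**Figure D4:**
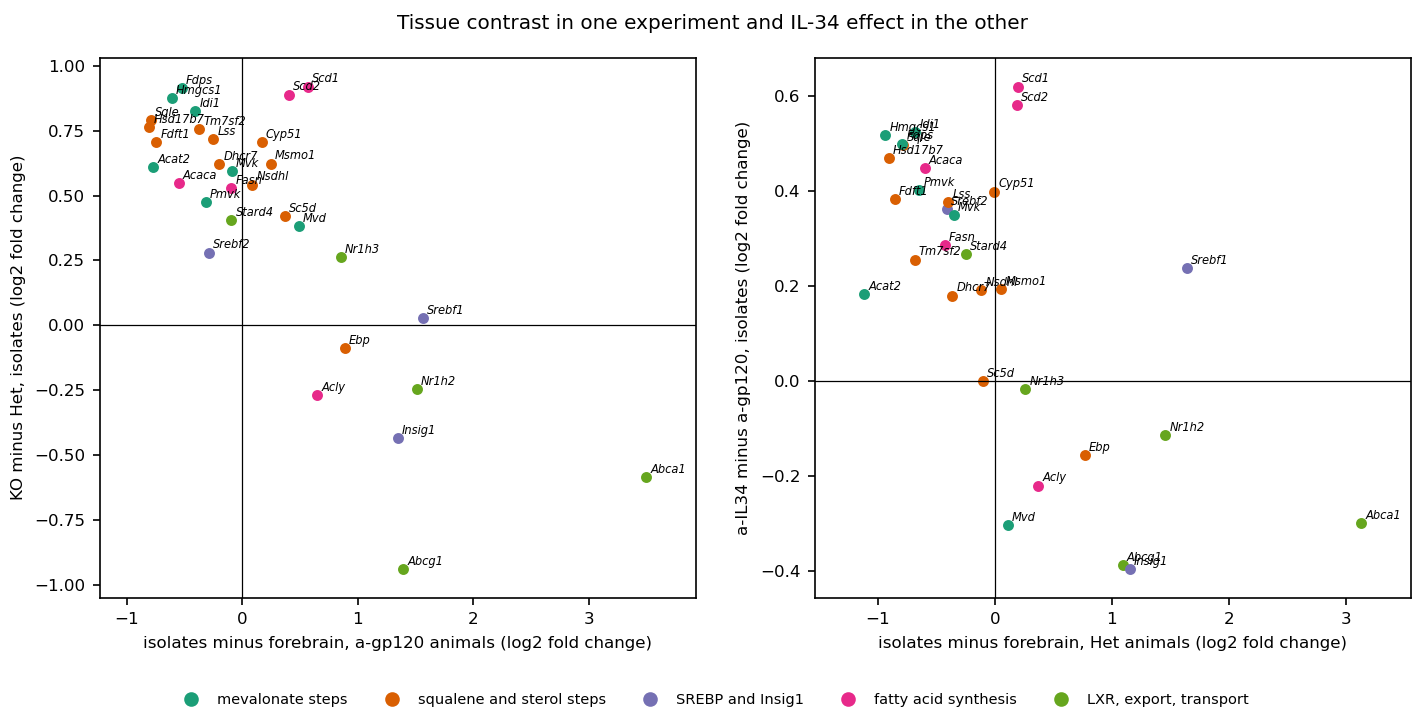
Log2 difference between isolates and forebrain in the control arm of one experiment (horizontal axis) against the log2 fold change of the arm effect in isolates of the other (vertical axis), for the 31 genes, coloured by role. Abca1 lies far to the right and below 0 in both panels, and the genes left of 0 lie at or above 0.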

How the data were processed

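Per the labels' protocols, an ultra-low-input SMART-Seq v4 kit gave the libraries. STAR 2.7.5c, featureCounts 1.6.3, R 4.4.0 and build GRCm38 are named in the submitters' processing notes; strand use is not given in the sources used here. The authors deposited unnormalised read counts for 51752 genes and TPM values equal to count over Length, scaled (largest relative deviation 5.63e-07). The deposited Length, a value outside the usual units, equalled the whole gene span for 51183 of 51498 identifiers matched to GENCODE M21. The sample sheet matched the labels for 30 of 30 libraries, and 6 count columns without a labelled sample were not used.

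The test of the counts was that of edgeR 4.0.16 under R 4.3.3 (quasi-likelihood F test, TMM scaling, default low-count filter, sex as covariate, Benjamini-Hochberg at 0.05 over all genes tested); SE is the log2 fold change over the square root of F. Each comparison used only its own libraries. The tissue contrast adds experiment as a covariate, and interactions add tissue and sex by tissue. Levels are TMM-scaled CPM over 20634 genes, with a pseudocount of 0.5 on the log2 scale. Alternatives were DESeq2 1.42.0, RLE scaling, no low-count filter, no sex terms, the animal as a block and leaving out each animal. Leaving out KO animal 3 or a-IL34 animal 11 removes a sex from its arm. The fits were also run on simulated counts with known changes, and the outcome is not given here. Figures used Python 3.11.15, pandas 2.3.3 and matplotlib 3.10.9.

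The forebrain and isolate libraries of an animal are paired by its number in the labels and the deposited sample sheet. Across genes, the paired deviations from the group mean correlated at 0.147 in the median animal, from 0.0465 up to 0.268, and over 0.1 for 11 of the 15. Chi-square over degrees of freedom was at least 5.48 in the 42 pairs of replicates, so none looked like the same library. The members and lists were chosen with earlier results of these data known. Every library value was printed for the 4 members with the smallest p in each comparison of arms, and for others added after their values were seen (Abca1, Hmgcs1, Scd1 and Scd2 in isolates, Abcg1 with the antibody). The values of Abcg1 in Het and KO forebrain were printed beside its interaction. Other pathway genes that passed were named up to 4 per comparison. Depth of 15.1 to 75.2 M counts (M, mega) gives 3 to 65 counts per library for Fdps and 34 to 181 for Nr1h3, where counting error is part of the spread, and at least 82 for the other members; the number of animals limits precision.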

Additional observations from a re-analysis of the deposited data

Results flagged for a closer look

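Among 78 groups of 4 libraries read for 13 members, 2 values stood apart from their group by Dixon's criterion (the gap to the nearest value as a share of the group's range), where chance gives about 1 in 20, or 3.9. Fdft1 read 60.8 CPM in the isolate of a-IL34 animal 10, above 52.2 to 53.5 CPM in the other 3 isolates of that arm. Srebf2 read 135 CPM in the isolate of Het animal 23, above 102 to 108 CPM in the other 3 Het isolates.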

How the results depend on the processing

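Over 470 refits of single named genes, 395 kept direction and side of the 0.05 threshold, 37 gained the call, 38 lost it and 0 changed sign. In counts of members called, DESeq2 gave 1 in KO forebrain, 10 in KO isolates, 2 in antibody isolates and 10 in the deletion interaction, each against 0 with edgeR. Dropping the low-count filter gave 1, 2, 2, 5 and 1 in KO forebrain, KO isolates, antibody forebrain, the deletion interaction and the antibody interaction, and dropping the sex terms gave 1, 2 and 5 in KO forebrain, KO isolates and the deletion interaction. Leaving out each animal gave 0 to 21 calls in KO isolates, 0 to 14 in antibody isolates, 0 to 1 in antibody forebrain, 0 to 18 in the deletion interaction and 0 to 13 in the antibody interaction. The high ends came without Het animal 1 (21 and 18) and without a-gp120 animal 15 (14, 1 and 13); without Het animal 21 KO isolates gave 3 and the deletion interaction 7. The causes were not tested. In the tissue contrast leaving out each animal gave 18 to 23 calls (8 to 9 higher, 10 to 15 lower), and single control arms, fits added after seeing the data with fewer libraries, gave 9 higher and 5 lower with a-gp120 (75.9% of all genes called) and 7 higher and 13 lower with Het (76.9%). RLE scaling moved no count of members called at an adjusted p under 0.05 by over 1.5 times. With the animal as a replicate block the tissue contrast gave 22 calls and the interactions 0 and 0; apart from Lss, Stard3, Abca7 and Mylip as given above, the block changed no call of a named gene. Comparisons of arms within a tissue hold 1 library per animal, so no block applies. Fdps, at 1.25 CPM or less, and Nr1h3 are limited by depth.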
